A study of Prunus sibirica with 30 samples.

Results

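ARG2 is the gene PaF106G0800029367.01 of the Siberian apricot, Prunus sibirica. It was taken by its identifier from the deposited expression table, where it is 1 of 143 complete genes, and all 30 of its values are described. The gene had already been chosen on these values, so its levels and differences are given as a description, with no test. The authors' description of the gene names the Swiss-Prot entry indole-3-acetic acid-induced protein ARG2, and its only listed domain is the late embryogenesis abundant domain PF03242. No other gene of the table carries that name or that domain. The gene lies on the plus strand of chromosome 8, from 23489068 to 23489630, on a build that the sources used here do not name. This is a span of 563 bases, of which 346 were counted as gene length.

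RNA was sequenced from flowers at bloom, labelled as pistil, of clone CR (No. 453, strong frost resistance) and clone NC (No. 371, weak frost resistance). Flowers of each clone were sampled at 5 times at -4 °C (0 h, then 15 and 30 min, then 1 and 2 h), with 3 libraries in each of the 10 groups. Each clone is a single genotype, all exposed groups were held at the same temperature, and no group was kept warm for the same time, so freezing and elapsed time cannot be told apart. The labels do not tie the 3 libraries of a group to different trees or branches, so the spread between them may be partly technical.

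Late embryogenesis abundant proteins are small, mostly hydrophilic proteins that build up in drying seeds and in plant tissues under drought, salt or cold. They are known for protecting other proteins and membranes when cells lose water, which also happens when ice forms between cells. ARG2 was named in mung bean, where auxin raised its transcript in hypocotyls, and its relative SAG21 in Arabidopsis is a mitochondrial protein whose transcript responds to oxidative stress. The name in apricot rests on sequence similarity.

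The 143 genes are listed by descending mean, which ran between 594 and 3835 FPKM (sequenced fragments divided by gene length and library size). The list ends in an incomplete line, and genes beyond it were not analysed. Shares of all genes and ranks therefore refer to these 143 abundant genes. The mean is over these same libraries, so a gene near the end may be listed only because some groups were high. ARG2 stood 27th of the 143 by its mean. The steps in the FPKM values give the reads behind each value, which were 2665 to 36611 for ARG2, so counting error was at most 1.94% and small beside the differences between libraries. The table holds 1731103 to 3544827 reads per library. Its list of pistil proteins had 0 members, so the labelled tissue could not be checked against pistil markers.

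The library labelled NC 30 min replicate 3 stood apart from its group. Over the 142 genes other than ARG2, each taken relative to the library median, its root mean square log2 difference was 0.160 to NC 2 h replicate 1, against 0.276 and 0.356 to the other 2 NC 30 min libraries. It was also the nearest library to NC 2 h replicate 1. NC 2 h replicates 2 and 3 lay at 0.346 and 0.288 from it, no nearer than NC 15 min replicate 3 (0.275). Having a nearest library outside the own group was not unusual in itself: it held for 14 of the 30 libraries, and in all 30 the nearest library was of the same clone. Values for NC at 30 min are therefore given with and without this library, and what set it apart was not tested.

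**Figure D1:**
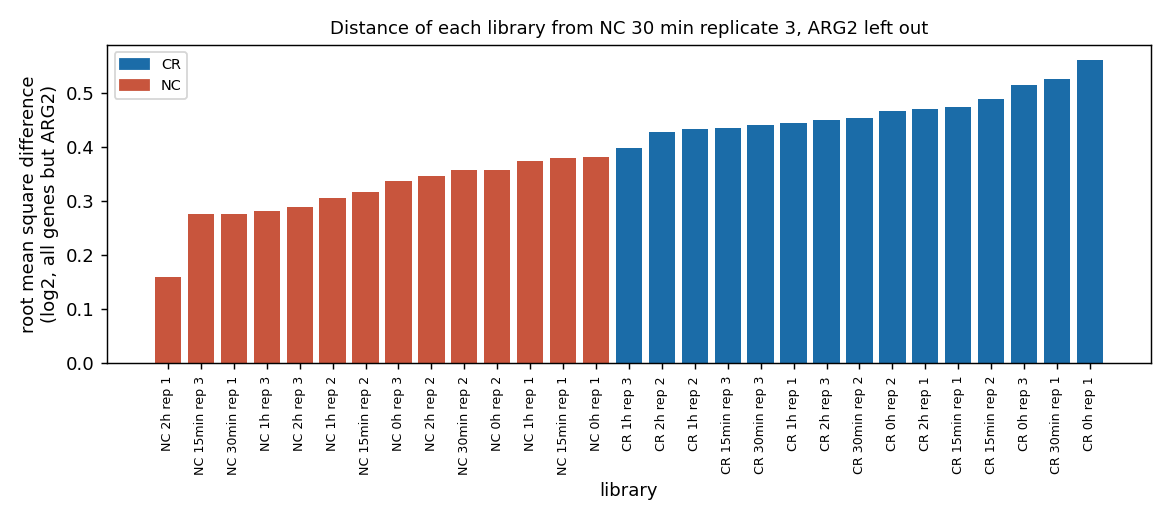
Root mean square difference in log2 level (vertical axis) between NC 30 min replicate 3 and each of the other 29 libraries (bars), over 142 genes without ARG2, each library centred on its median. NC 2 h replicate 1 is nearest, at 0.160, and NC 30 min replicates 1 and 2 lie at 0.276 and 0.356.

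In the frost-sensitive clone NC, ARG2 was low at the start and abundant after 2 h. It had 3026, 6019 and 1744 FPKM in the NC 2 h libraries, against 536, 663 and 717 FPKM in the NC 0 h libraries. All 3 libraries at 2 h lay above all 3 at 0 h, but they also differed from each other by up to 3.45-fold. The mean was 3596 ± 2194 FPKM in NC at 2 h and 639 ± 92.8 FPKM in NC at 0 h (SD, n = 3 each), a ratio of 5.63. On the scale of log2(FPKM + 1) the difference was 2.32, with a pooled SD between replicates of 0.651, and it was the highest of the 143 genes. Groups that did not overlap in this direction made up 4.90% of all genes. Groups of 3 can reach shares of this size, here and below, without any change.

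The intermediate times in NC did not form a steady course. At 15 min ARG2 had 343, 587 and 670 FPKM, which overlapped the 0 h libraries. The first of these was the lowest ARG2 level of all 30 libraries, and in it ARG2 was the least abundant of the 143 genes. At 30 min the libraries had 1109, 594 and 3714 FPKM. The group mean of 1806 ± 1673 FPKM (SD, n = 3) rested on replicate 3, the library nearest to NC 2 h replicate 1, and the other 2 libraries averaged 852 FPKM. The log2 difference of NC 30 min from NC 0 h was 1.09, with overlapping groups, and 0.36 without replicate 3.

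At 1 h the NC libraries were close together, with 755, 759 and 878 FPKM. They lay above the 0 h libraries by 0.33 on the log2 scale, where the pooled SD was 0.176 and 3.50% of all genes had groups apart in this direction. Relative to the library median this difference was 0.29 and the groups overlapped. The step from 1 h to 2 h was the large one. The mean was 3596 ± 2194 FPKM in NC at 2 h and 797 ± 70.2 FPKM in NC at 1 h (SD, n = 3 each), a log2 difference of 1.99. The groups did not overlap, as in 4.20% of all genes in this direction.

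In the frost-resistant clone CR, ARG2 started higher and varied less. It had 1509, 1436 and 1593 FPKM in the CR 2 h libraries, against 1214, 753 and 1187 FPKM in the CR 0 h libraries. The 2 h libraries were all above the 0 h libraries, and above every other CR library, the next being CR 1 h replicate 3 at 1388 FPKM. The mean was 1512 ± 78.7 FPKM at 2 h and 1051 ± 259 FPKM at 0 h (SD, n = 3 each), a ratio of 1.44 and a log2 difference of 0.56 with a pooled SD of 0.280. Groups apart in this direction made up 2.80% of all genes, again a share that groups of 3 can reach without any change. The difference of ARG2 ranked 2nd of 143.

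From 15 min on the CR means were ordered by time. Those at 15 min and 30 min lay below the 1051 FPKM of CR 0 h, with groups that overlapped it. At 15 min the mean was 840 ± 121 FPKM, followed by 962 ± 186 FPKM after 30 min and 1180 ± 197 FPKM after 1 h (SD, n = 3 each). Neighbouring groups overlapped from 15 min to 1 h, while CR 2 h lay above CR 1 h by 0.37 on the log2 scale. Groups apart in this direction made up 45.5% of all genes, and relative to the library median those of ARG2 overlapped. The replicates at 2 h were the closest of all 10 groups, with a coefficient of variation of 5.20%, against 61.0% in NC at 2 h.

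**Figure D2:**
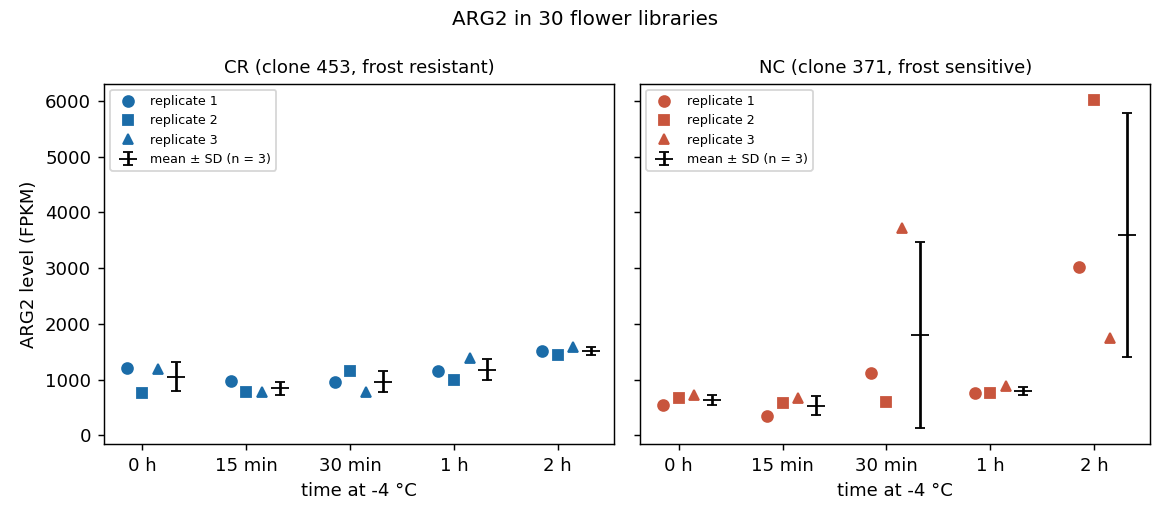
ARG2 level in FPKM (vertical axis) in each library (points, shaped by replicate number) at 5 times at -4 °C, for CR (left) and NC (right), with mean and SD of the 3 libraries beside them. The CR libraries lie between 753 and 1593 FPKM, and 4 NC libraries, those at 2 h and 30 min replicate 3, lie above them at 1744 to 6019 FPKM.

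Setting the clones side by side, ARG2 was higher in CR before the cold and lower in CR after 2 h of it. At 0 h it had 753 to 1214 FPKM in CR and 536 to 717 FPKM in NC, a log2 difference of 0.70, with groups apart as in 69.2% of all genes in this direction. At 15 min the difference was 0.70, with groups apart as in 32.2% of genes, and at 1 h it was 0.56, with groups apart as in 65.7% of genes. At 30 min the groups overlapped, and the difference was -0.50, or 0.23 without NC 30 min replicate 3. At 2 h ARG2 had 1436 to 1593 FPKM in CR and 1744 to 6019 FPKM in NC, a log2 difference of -1.07 with a pooled SD of 0.635. Groups apart in this direction made up 5.59% of all genes, again a share that groups of 3 can reach without any change.

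Ordered by their mean, the 10 groups ran from NC 2 h through NC 30 min, CR 2 h, CR 1 h, CR 0 h, CR 30 min, CR 15 min, NC 1 h and NC 0 h down to NC 15 min, at 533 ± 170 FPKM (SD, n = 3). Of the 9 pairs of neighbours in this order, 7 overlapped. The exceptions were CR 2 h, which lay above CR 1 h, and NC 1 h, which lay above NC 0 h. Without replicate 3 the 2 NC 30 min libraries, at 594 and 1109 FPKM, averaged less than CR 30 min and more than CR 15 min.

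The level of all 143 genes together also differed between libraries, so ARG2 was set against the median gene of each. This median is of the 143 genes only, many of which encode ribosomal proteins. The median was 965 to 1072 FPKM in CR at 2 h and 954 to 1285 FPKM in CR at 0 h. It was 544 to 749 FPKM in NC at 2 h and 721 to 797 FPKM in NC at 0 h. In NC at 2 h ARG2 stood 2.01, 3.46 and 1.65 above the library median on the log2 scale, against -0.57, -0.22 and -0.01 in NC at 0 h. The difference between these groups was 2.64 on this relative scale, larger than the 2.32 without it, and 14.7% of all genes had groups apart in this direction.

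In CR at 2 h ARG2 stood 0.49, 0.52 and 0.72 above the median, against -0.08, -0.34 and 0.16 in CR at 0 h. The relative difference was 0.66, with groups apart as in 6.29% of all genes. Along the times in CR the relative mean was first -0.09, then -0.02 after 15 min, 0.10 after 30 min, 0.33 after 1 h and 0.58 after 2 h. The lower FPKM of ARG2 at 15 min and 30 min than at 0 h in CR (-0.30 and -0.11) turned to 0.064 and 0.18 relative to the median, with overlapping groups on both scales. At 1 h the relative values lay above those at 0 h by 0.42, with groups apart as in 16.1% of genes, while on the FPKM scale the groups overlapped.

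Relative to the median, the difference of CR from NC at 0 h shrank to 0.18 and the groups overlapped. At 15 min it was 0.54 with groups apart, as in 19.6% of genes, and at 1 h it was 0.30 with overlapping groups. At 2 h it was -1.80, with groups apart as in 21.7% of genes. The groups at 2 h were thus apart on both scales, and those at 0 h only on the FPKM scale.

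**Figure D3:**
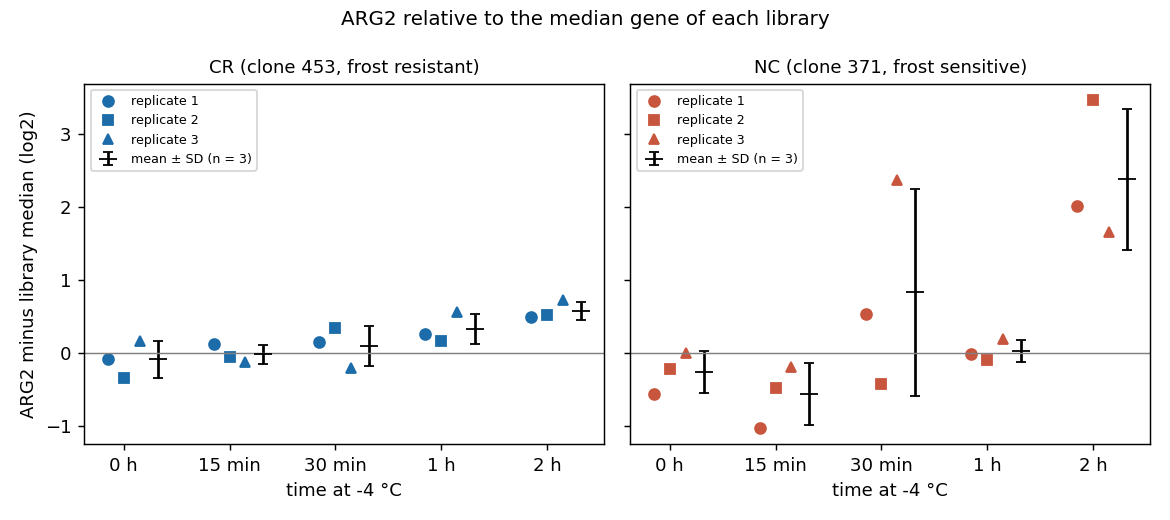
Difference between ARG2 and the median of the 143 genes of the same library, in log2 units (vertical axis), per library (points, shaped by replicate number) with mean and SD, for CR (left) and NC (right) at 5 times at -4 °C. Group means in CR run from -0.09 at 0 h to 0.58 at 2 h, and the NC 2 h libraries stand at 1.65 to 3.46.

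Within single libraries ARG2 reached the top of the table. It was the most abundant of the 143 genes in NC 2 h replicate 2 and in NC 30 min replicate 3, the 3rd in NC 2 h replicate 1 and the 6th in NC 2 h replicate 3. In CR at 2 h it ranked 35th, 35th and 24th, and in CR at 0 h 81st, 106th and 58th. Its reads made up 0.842%, 1.93% and 0.619% of all reads of the table in the NC 2 h libraries, against 0.132%, 0.173% and 0.200% in the NC 0 h libraries. In CR the share was 0.305%, 0.307% and 0.355% at 2 h, against 0.205%, 0.175% and 0.242% at 0 h.

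ARG2 had the widest range of the 143 genes. Its highest level was 17.5 times its lowest, against 2.80 times for the median gene. Its SD between replicates of a group was 0.571 on the log2 scale, the highest of all genes, against a median of 0.168. Without NC 30 min replicate 3 it was 0.418 and ranked 3rd. Among the CR libraries it was 0.258 and ranked 14th. Differences between groups held 69.0% of the variance of ARG2 over all libraries and 81.2% without NC 30 min replicate 3. The median gene had 80.0% and 81.0%.

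The genes whose pattern was most like that of ARG2 were found by the correlation of relative log2 levels over the 30 libraries, which is a description. The libraries fall into 4 with high ARG2 and 26 others, so each value is also given over the 26. Metallothionein-like protein type 2, a small protein that binds metal ions, came first, with Pearson's r of 0.93 and Spearman's rho of 0.77. Its r was 0.84 without NC 2 h replicate 2 and NC 30 min replicate 3, the libraries farthest from the ARG2 median, and 0.82 without the NC 2 h libraries. It was 0.64 over the 26 libraries.

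Next came polyubiquitin, from which cells release the ubiquitin that marks proteins for degradation, with r of 0.83 and rho of 0.36. Its r was 0.46 without the NC 2 h libraries and -0.03 over the 26, so this likeness rested on the high libraries. The photosystem II 10 kDa polypeptide, a subunit of the water-splitting photosystem, had r of 0.79 and rho of 0.70, and kept r of 0.69 over the 26 libraries. CP12-1, a regulator of the Calvin cycle, had r of 0.77 and rho of 0.39, and 0.23 over the 26. Thioredoxin H-type, a cytosolic redox protein, had r of 0.73 and rho of 0.53, and 0.40 over the 26. Without centring on the median these 5 values of r were 0.92, 0.85, 0.53, 0.63 and 0.39. Within clones the values differed from those over the 26 libraries. Over the 15 CR libraries r was 0.41 for metallothionein, 0.092 for polyubiquitin, 0.32 for the photosystem II polypeptide, 0.57 for CP12-1 and -0.051 for thioredoxin. Over the 11 NC libraries without the 4 high ones it was 0.60, 0.36, 0.74, 0.76 and 0.45 in the same order. All libraries of a clone share their genotype, and all values share the scaling of their library.

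Metallothionein was high in the same NC libraries as ARG2. It had 2011, 5661 and 2102 FPKM in NC at 2 h, against 560, 965 and 823 FPKM in NC at 0 h, and 2159 FPKM in NC 30 min replicate 3. Both genes thus had their 4 highest libraries in common. In CR it had 1081, 1084 and 1240 FPKM at 2 h, against 1281, 976 and 1344 FPKM at 0 h. The ratio of ARG2 to metallothionein was 1.28 to 1.40 in CR at 2 h, against 0.771 to 0.947 in CR at 0 h. In NC this ratio was 0.829 to 1.50 at 2 h and 0.687 to 0.958 at 0 h, and the groups overlapped.

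**Figure D4:**
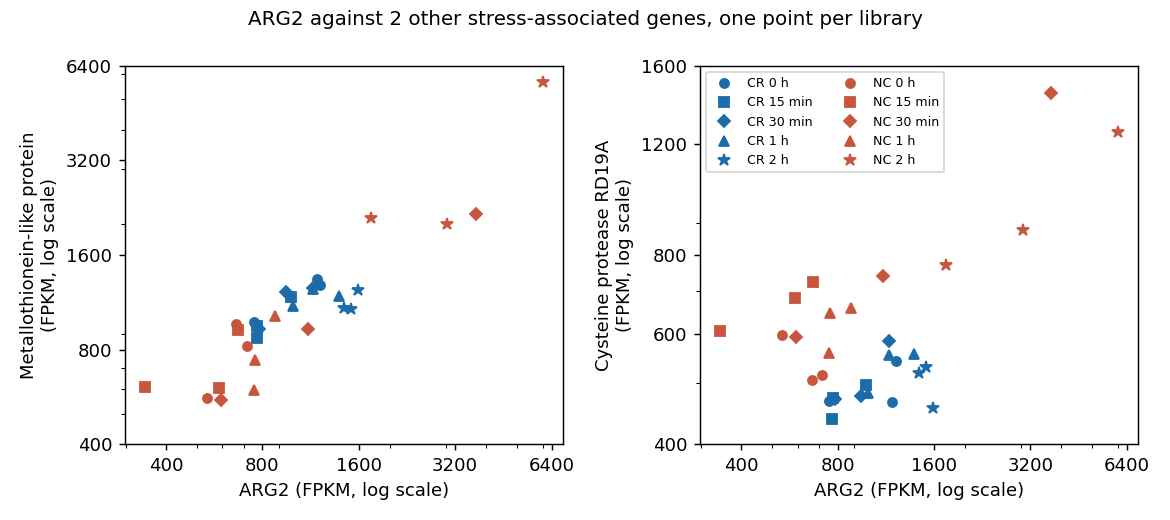
ARG2 level (horizontal axis, FPKM, log scale) against metallothionein-like protein type 2 (left) and cysteine protease RD19A (right, vertical axes, FPKM, log scale), 1 point per library, coloured by clone and shaped by time. The 4 libraries with ARG2 from 1744 to 6019 FPKM are also the 4 highest for metallothionein, at 2011 to 5661 FPKM, and for RD19A, at 770 to 1450 FPKM.

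Along the chromosome, 17 other genes of the table share chromosome 8 with ARG2. The nearest start sites are those of ribosomal proteins L18-2, L22-2 and L19-3, 14.5, 50.2 and 79.7 kb away, with r of -0.66, -0.43 and -0.19 to ARG2. CP12-1, 4th in likeness, is also 4th in distance, at 169 kb.

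Other genes with names tied to stress or protein turnover were compared with ARG2 through lists of names. They were 11 genes: cold-regulated and osmotic-stress proteins, chaperones, redox proteins and proteins named for protein turnover. AED3, polyubiquitin and ubiquitin-like protein 5 were in the turnover list only. The 11 are called protective genes below as a label of these lists, and a protective role was not measured. Heat shock protein 90-2 entered the cold and osmotic lists through alternative names, and the lipid-transfer protein entered the turnover list through its domain. The auxin list held no gene but ARG2. The 11 genes were tested with limma on log2(FPKM + 1) over all 143 genes. The lists were chosen with earlier results of these data known, so the counts and p-values are no independent test. The model shared 1 estimate of spread per gene over all 10 groups, so its SEs do not show the spread of the groups compared.

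In NC, 6 of the 11 rose and 4 fell after 2 h against 0 h, where 4.90% of all genes rose and 62.9% fell. These 6 are among the 7 of all 143 genes that rose, so the share of 4.90% is largely made of them. The shares of all genes also count ARG2. With NC 2 h and NC 0 h fitted alone, 5 of the 11 rose and 3 fell. The median change of the 11 was 0.39, against -0.39 for all genes. Metallothionein rose by 1.92 on the log2 scale (SE 0.341, limma adjusted p = 9.92e-05) and RD19A, a cysteine protease induced by drought in Arabidopsis, by 0.81 (SE 0.198, limma adjusted p = 0.00139). RD19A had 877, 1254 and 770 FPKM in NC at 2 h, against 596, 507 and 516 FPKM in NC at 0 h, and 1450 FPKM in NC 30 min replicate 3, its highest value. The RD19A mean in NC at 0 h, 540 FPKM, lay below the lowest mean of the table, 594 FPKM. Its place in the table may thus rest on these high libraries.

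RCI2B, a small membrane protein known as cold-induced in Arabidopsis and the other member of the cold list apart from HSP90-2, rose by 0.73 (SE 0.257, limma adjusted p = 0.0158). It had 1008, 2083 and 1931 FPKM in NC at 2 h, against 796, 1030 and 1077 FPKM in NC at 0 h, so these groups overlapped where those of ARG2 did not. Polyubiquitin (0.72), the non-specific lipid-transfer protein 1 (0.63), which binds lipids in the cell wall, and thioredoxin H-type (0.39) also rose.

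The 4 that fell were the chaperones heat shock cognate 70 kDa protein (-0.75) and heat shock protein 90-2 (-0.74), the aspartyl protease AED3 (-0.58) and the cytosolic L-ascorbate peroxidase (-0.38), which removes hydrogen peroxide. Heat shock cognate 70 had 470 ± 56.3 FPKM in NC at 2 h and 792 ± 67.7 FPKM in NC at 0 h (SD, n = 3 each). Relative to the library median, 7 rose and 3 fell, against 14.7% and 26.6% of all genes. Ubiquitin-like protein 5 (0.55) was added and ascorbate peroxidase (-0.06) no longer passed.

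In CR, 0 of the 11 passed in either direction after 2 h against 0 h by limma, as did 0% of all 143 genes, with 1 of the 11 and 6 of all genes at an unadjusted p under 0.05. With weights from limma's voom, or with CR 2 h and CR 0 h fitted alone, 0 of the 11 passed too. The changes ran from -0.25 for ubiquitin-like protein 5 to 0.10 for lipid-transfer protein 1, with SEs of 0.122 and 0.175. Those of metallothionein, RD19A and RCI2B were -0.07, 0.03 and -0.19, with SEs of 0.341, 0.198 and 0.257. For metallothionein the SE was the same in NC, although its SD was 91.1 FPKM in CR at 2 h and 2082 FPKM in NC at 2 h.

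**Figure D5:**
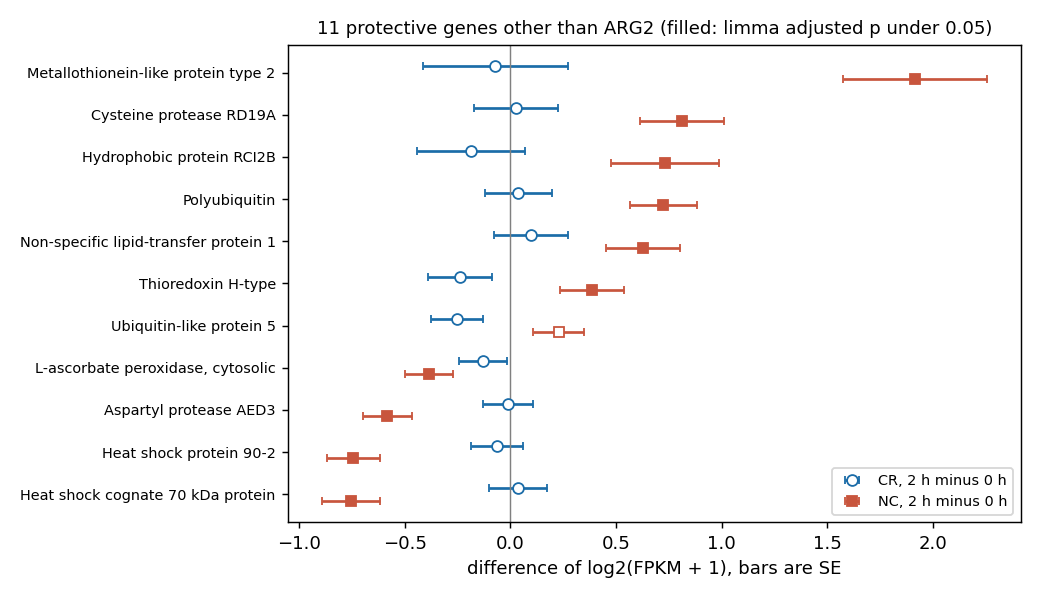
Difference of log2(FPKM + 1) between 2 h and 0 h (horizontal axis, bars are SE from limma) in CR (circles) and NC (squares) for 11 genes of the protective lists other than ARG2. The SE rests on 1 estimate of spread per gene over all 10 groups. Filled symbols passed an adjusted p of 0.05, which holds for 10 genes in NC and 0 in CR.

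The difference between the clones' changes over 2 h was tested directly. It passed for 6 of the 11 genes, 3 higher and 3 lower in CR, where 13.3% and 3.50% of all genes passed in these directions. Relative to the library median it passed for 2 higher and 6 lower, against 16.1% and 8.39% of all genes. Metallothionein had a difference of -1.99 (SE 0.483, limma adjusted p = 0.0117). The count of 6 was 1 without CR 2 h replicate 1 or without NC 2 h replicate 2, 0 without NC 0 h replicate 1, and 2 with the 4 groups fitted alone.

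Between the clones at 0 h, 4 of the 11 were higher and 1 lower in CR than in NC, against 70.6% and 4.20% of all genes. Higher were ubiquitin-like protein 5 (1.27), thioredoxin H-type (0.88), lipid-transfer protein 1 (0.87) and RCI2B (0.69). Ubiquitin-like protein 5 averaged 379 FPKM in NC at 0 h, below the lowest mean of the table, 594 FPKM. Its place in the table may thus rest on its level in CR. AED3 was lower (-1.15). Relative to the median 2 were higher and 6 lower, against 37.1% and 27.3% of all genes, and RCI2B (0.18, limma adjusted p = 0.635) and lipid-transfer protein 1 (0.35, limma adjusted p = 0.0660) no longer passed. ARG2 likewise had a relative difference of 0.18 at 0 h.

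At 2 h, 4 of the 11 were higher and 4 lower in CR than in NC, against 84.6% and 5.59% of all genes. Lower were metallothionein (-1.35), RD19A (-0.92), polyubiquitin (-0.72) and AED3 (-0.58), the direction that ARG2 had (-1.07). Higher were heat shock cognate 70 (0.94), ubiquitin-like protein 5 (0.79), heat shock protein 90-2 (0.62) and ascorbate peroxidase (0.50). Relative to the median 0 were higher and 8 lower, against 39.2% and 23.8% of all genes, and the genes were partly others. Heat shock cognate 70 (0.20), ubiquitin-like protein 5 (0.061) and heat shock protein 90-2 (-0.11) no longer passed. Ascorbate peroxidase (-0.23) turned lower, and RCI2B (-0.96), thioredoxin H-type (-0.48) and lipid-transfer protein 1 (-0.39) were added as lower. The comparisons with 0 h and between clones share libraries, so their values are not independent.

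Markers of other tissue were summed in each library. The 9 genes of the photosynthesis list, 1 of which entered through its domain, summed to 6219 to 8952 FPKM in NC at 2 h and 10566 to 12693 FPKM in NC at 0 h. They summed to 12924 to 13349 FPKM in CR at 2 h and 11211 to 17225 FPKM in CR at 0 h, and to 10244 FPKM in NC 30 min replicate 3. The pollen and anther list had 2 genes, 1 of them through its domain, and summed to 1516 to 1669 FPKM in NC at 2 h and 1742 to 1879 FPKM in NC at 0 h. In CR it summed to 1687 to 1760 FPKM at 2 h and 1795 to 2510 FPKM at 0 h. Divided by the library median, the green sum was 11.2 to 15.3 in NC at 2 h and 14.5 to 16.5 in NC at 0 h, and the pollen sum was 2.02 to 3.01 in NC at 2 h and 2.36 to 2.42 in NC at 0 h. Both pairs of ranges overlapped. Within the green list the photosystem II 10 kDa polypeptide had 899 ± 234 FPKM in NC at 2 h and 769 ± 54.6 FPKM in NC at 0 h (SD, n = 3 each), while the mean of each of the other 8 genes was lower at 2 h. The pollen sum also hid unlike members. Arabinogalactan protein 31 had 1142 ± 154 FPKM in NC at 2 h and 1175 ± 54.8 FPKM at 0 h. The Olee1-like protein had 459 ± 80.7 and 645 ± 37.2 FPKM (SD, n = 3 each). None of these genes was at 0 in any group. The part of tissue makeup in the ARG2 values was not tested, and fewer cells of a type cannot be told apart from less RNA per cell in bulk tissue.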

How the data were processed

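The deposited values are FPKM, 1 column per library, as the authors made them. The submitters' processing notes name HISAT2, Picard, SAMtools 0.1.18 and GATK, without saying what each did. Which counter, gene models or genome assembly were used is not stated there. The FPKM table analysed here holds 143 complete genes, and 1 incomplete line was left out. The gene length, a deposited column of other kind in bases, multiplied by FPKM gave whole multiples of 1 step per library for 4290 of 4290 values (relative tolerance 1e-06), which gave the reads. The library divisor implied by that step was a whole number in 0 of 30 libraries, and how the library size was set is not stated. FPKM is a share of a total, so other abundant transcripts move all values of a library.

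Levels are mean ± SD. Differences are of log2(FPKM + 1), and groups are called apart where the ranges of their 3 libraries do not overlap. Groups of 3 come apart in some genes without any change. Relative values subtract the library median of log2(FPKM + 1). The tests used limma 3.58.1 in R 4.3.3 with a mean-variance trend and 1 model of 10 group means, two-sided, with Benjamini-Hochberg adjustment over all 143 genes at 0.05. A filter of at least 1 FPKM in at least 3 libraries removed no gene. The fit was tested on simulated data. Named were ARG2, the cold and auxin lists, other protective genes past a test, and the 5 genes most like ARG2. Chromosome neighbours were added after their values were seen. The gene and all lists were chosen with earlier results of these data known. Replicate numbers were not used to pair the samples. Alternatives were scaling, pseudocount, filter, trend, groups fitted, replicate block, voom weights and leaving out each library.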

Additional observations from a re-analysis of the deposited data

Results flagged for a closer look

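ARG2 differed between CR and NC in opposite directions at the start and the end. Every CR library was above every NC library at 0 h and below every NC library at 2 h, where the log2 difference was -1.07. Groups apart in these directions made up 69.2% of all genes at 0 h and 5.59% at 2 h. The difference between these times was not tested for ARG2, and at 0 h the groups overlapped relative to the library median.

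Limma's test of the difference between the clones' changes over 2 h passed for 6 of the 11 protective genes. The lists were chosen with earlier results of these data known. Of the 6 genes 3 were higher and 3 lower in CR, where 13.3% and 3.50% of all genes passed. The count of 6 fell to 0 without NC 0 h replicate 1 and to 2 with the 4 groups fitted alone. The change in CR minus that in NC was -1.99 for the metallothionein-like protein type 2, -0.69 for polyubiquitin and -0.63 for thioredoxin H-type. It was 0.57 for the aspartyl protease AED3, 0.68 for heat shock protein 90-2 and 0.79 for heat shock cognate 70 kDa protein. Relative to the library median AED3 no longer passed (0.35, limma adjusted p = 0.0650), and the other 5 did.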

How the results depend on the processing

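For the 19 differences of ARG2 between groups, another pseudocount moved no value by more than 0.0158 on the log2 scale. Centring each library on its median moved 4 of them by more than the SD between replicates: to 0.064 for CR 15 min against CR 0 h (-0.30 as FPKM), and for CR against NC to 0.18 at 0 h, 0.30 at 1 h and -1.80 at 2 h. Leaving out 1 of the 3 libraries of a group cannot move a difference by more than that SD, so ranges are given. For NC 2 h against NC 0 h the range was 1.86 to 2.75. For CR 2 h against CR 0 h it was 0.33 to 0.68, and for NC 30 min against NC 0 h 0.36 to 1.68. The sign turned for CR against NC at 30 min without NC 30 min replicate 3 (0.23, against -0.50), for CR 1 h against CR 0 h without CR 0 h replicate 2 (-0.037, against 0.19) and for CR 30 min against CR 0 h without CR 30 min replicate 3 or CR 0 h replicate 1 (0.027 and 0.0081, against -0.11).

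Of the counts among the 11 protective genes, that of CR against NC at 0 h was 8 after centring, against 5. The count for the difference between the clones' changes was 2 with the 4 groups fitted alone, against 6, and 0 to 9 when single libraries were left out. Same-numbered libraries did not all deviate together (correlations of -0.10 to 0.67). This cannot tell whether the numbers pair the libraries, and the main fit did not use them as pairs. With the replicate number as a block the counts were 10 for NC 2 h against NC 0 h, 0 for CR 2 h against CR 0 h, 6 and 9 for CR against NC at 0 h and 2 h, and 6 for the difference of changes. Voom weights and a model without NC 30 min replicate 3, both added after the data were seen, gave 6 and 8 for the difference of changes. Counting error of ARG2 was at most 1.94% in a library.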
